A study of Mus musculus with 5 samples.

Results

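The genes described here are 32 genes of sterol and fatty acid synthesis, listed by symbol for their roles, with no threshold on their values but with earlier results of these data known: the SREBP factors and the proteins that hold or escort them, the enzymes of the mevalonate and cholesterol pathways, a sterol carrier and the lipogenic enzymes. Of the 23478 genes in the deposited table, 31 of the 32 were found under their own symbol and Msmo1 under its older symbol Sc4mol, and all 32 had enough reads to be tested. RNA-Seq was performed on GFP-sorted lung cells harvested on P6 from 2 groups of mice, 2 libraries labelled Control and 3 labelled Igf1r-deleted. Every mouse carried Gli1-CreERT2 and the Rosa26-eGFP reporter and was given tamoxifen on P0 and P1, 100 µg each time. Control mice had 1 floxed Igf1r allele beside a wild-type allele, and Igf1r-deleted mice had 2 floxed alleles, so that recombined cells of the controls also lost a copy of Igf1r. The labels call the cells fibroblasts. In the study's staining of lungs, the Gli1-CreERT2 reporter marked mainly myofibroblasts, with some lipofibroblasts and rarer pericytes and smooth muscle cells. Mice of both sexes on a mixed background were used, and neither the sex nor the number of pups behind a library is given, so p-values measure the spread between these libraries.

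Cells make cholesterol from acetyl-CoA through mevalonate, farnesyl diphosphate and squalene, and fatty acids from acetyl-CoA through malonyl-CoA. The SREBP proteins are membrane-bound transcription factors that switch on both sets of enzymes: when sterols are scarce, SCAP escorts them from the endoplasmic reticulum to the Golgi, where proteases release the active factor, and INSIG proteins hold SCAP back when sterols are plentiful. Insulin and IGF signalling through AKT and mTORC1 is known to raise SREBP activity, and in the developing lung lipofibroblasts store lipid that is passed on to the surfactant-producing epithelium.

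The libraries held 35116766 to 37597857 counts and the lowest count of any of the 32 genes in any library was 33. Igf1r, the targeted gene, was at 324 CPM (counts scaled to a common library size) in each Control library and at 140, 177 and 194 CPM in Igf1r-deleted 1, 2 and 3. The log2 fold change, given throughout as Igf1r-deleted over Control, was -0.93 ± 0.14 (SE). The counts are per gene and do not separate the floxed region from the rest of the transcript. Across the 15298 genes tested, the edgeR quasi-likelihood test called 0 genes at a Benjamini-Hochberg adjusted p under 0.05 and 1897 (12.4%) at an unadjusted p under 0.05, while DESeq2 called 200 (1.31%) after adjustment, and edgeR with the replicate number as a block called 136 (0.889%). The adjusted p of Igf1r was 0.354 by edgeR and 1.06e-05 by DESeq2.

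Most transcripts of the cholesterol pathway were higher in Igf1r-deleted cells, by modest amounts that did not pass adjustment, with a median log2 fold change of 0.15 for the mevalonate enzymes and 0.34 for those from squalene to cholesterol. Of the 32 genes, 25 had a positive log2 fold change (78.1%, against 52.3% of all genes tested), and their median was 0.13, beside 0.015 for all genes. In 11 genes every Igf1r-deleted library lay above both Control libraries (34.4%, against a background of 16.0% of all genes): Hmgcs1, Pmvk and Fdps of the mevalonate pathway, Fdft1, Sqle, Lss, Cyp51, Msmo1 and Hsd17b7 of the steps from squalene to cholesterol, and the fatty acid enzymes Elovl6 and Fads2. In 3 genes every Igf1r-deleted library lay below both Control libraries (9.38%, against 14.9%): Scap, Acly and Fasn. The genotypes overlapped in the remaining 18. At an unadjusted p under 0.05 by edgeR, 5 genes were higher (Sqle, Cyp51, Hmgcs1, Hsd17b7 and Fads2, 15.6% against a background of 5.65%) and 1, Scap, was lower (3.13% against 6.75%). None of the 32 genes passed an adjusted p of 0.05 in edgeR, where the lowest value was 0.354, and 1 of them, Sqle, passed in DESeq2 and with the replicate block.

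**Figure D1:**
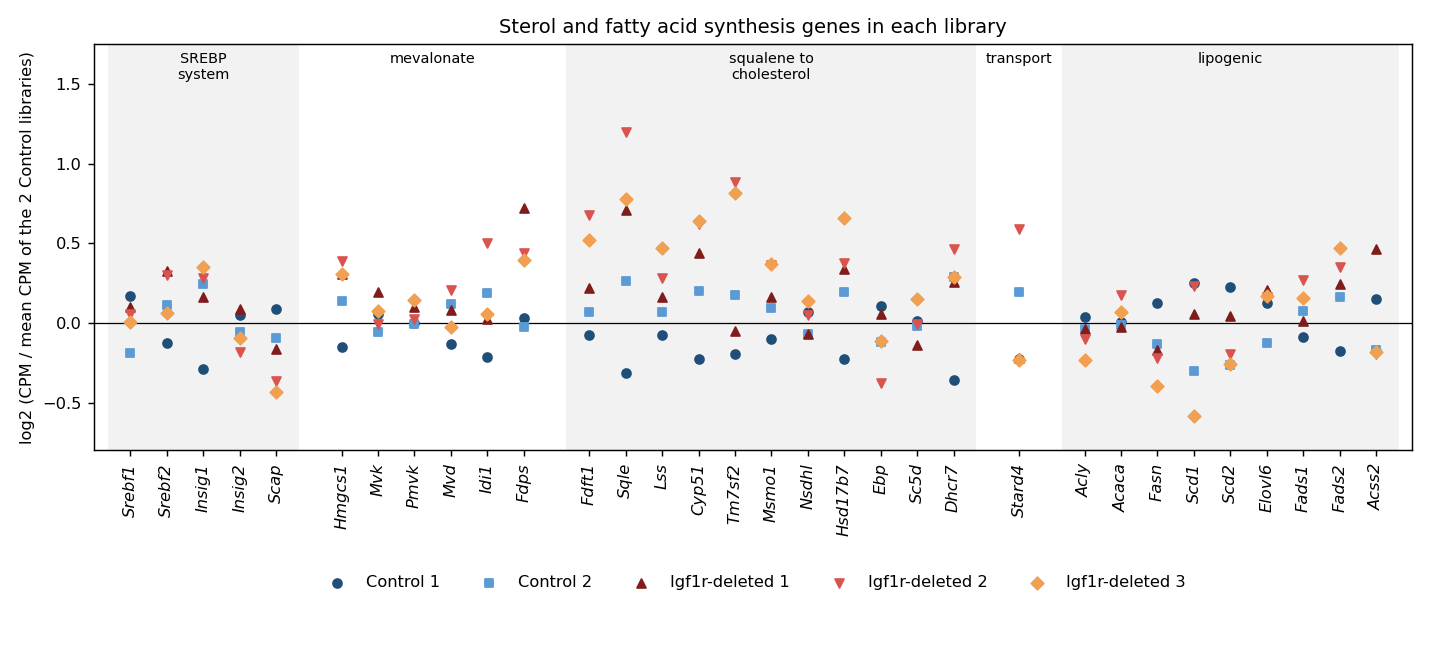
Each of the 32 genes is plotted along the horizontal axis by role, and the vertical axis gives the log2 ratio of its CPM in each library to the mean CPM of the 2 Control libraries. Sqle stands highest, with its 3 Igf1r-deleted libraries above both Control libraries, and most squalene-to-cholesterol genes have Control 1 as the lowest point.

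**Figure D2:**
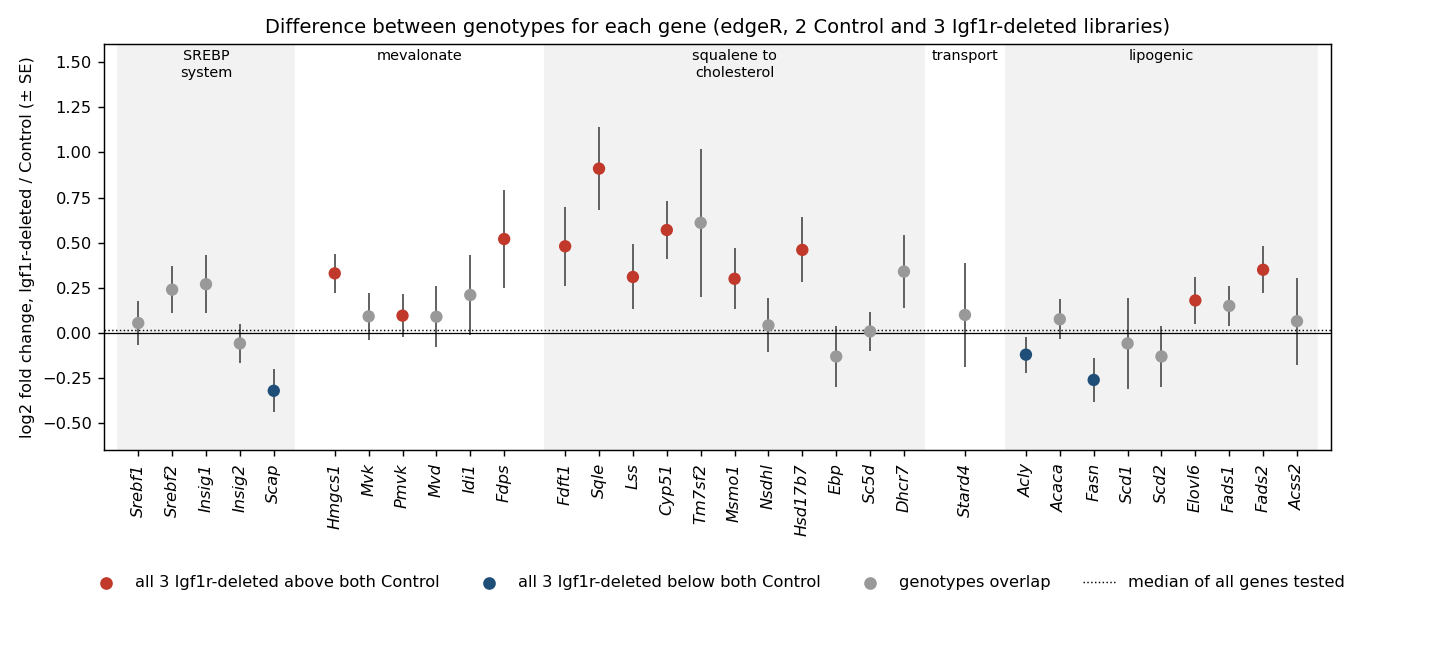
Points give the edgeR log2 fold change of each gene, Igf1r-deleted over Control, and bars its SE, with the dotted line at the median of all genes tested (0.015). The points of the squalene-to-cholesterol group reach 0.91 for Sqle, and those for Scap and Fasn lie at -0.32 and -0.26.

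Some sums over marker genes differed between genotypes as well. The summed CPM of 10 myofibroblast markers was 3519 and 3549 in the controls and 3681 to 4126 after deletion, with 7 of 10 log2 fold changes positive. Acta2, Tagln, Actg2, Myocd and Wnt5a lay above both controls, while Myh11 and Cnn1 overlapped. Pdgfra (-0.18), Hhip (-0.47) and Aspn (-0.23) were negative and overlapped. Between Control 1 and 2, Acta2 rose from 407 to 655 CPM and Hhip fell from 1078 to 808 CPM. The summed CPM of 6 proliferation markers was 119 and 133 against 140 to 208, with 6 of 6 positive. Among these 6, only Mki67 (0.59) lay above both controls without overlap. The others overlapped, with log2 fold changes from 0.017 (Birc5) to 0.46 (Top2a). The sum of 10 lipofibroblast markers was 10528 and 10778 in the controls and 9020 to 10023 after deletion, with 8 of 10 negative. Of these 10 markers, 3 (Fabp4, Lpl and Pparg) are also in the fatty acid uptake list. This sum is made largely of Npnt, Limch1 and Gyg, which each overlapped between genotypes, while Tcf21, Lipa and Fabp4 lay below both controls. None of these sums overlapped between genotypes. The sum of 6 glucocorticoid-response genes was 2061 in Control 1, 987 in Control 2 and 502 to 656 after deletion, with all 6 log2 fold changes negative. The sum of 10 immediate early and dissociation genes was 15771 and 17936 against 11194 to 12988, with all 10 negative. Single genes of both lists overlapped between genotypes: Fkbp5 and Per1 of the first, and Fosb, Jun, Egr1 and Atf3 of the second. The marker sums move with the same split of libraries as the cholesterol enzymes, and their part in the differences was not tested. In a sorted bulk sample, fewer cells of a type and less RNA per cell cannot be told apart.

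Markers of cells outside the fibroblast lineages were present at lower levels and overlapped between genotypes. Alveolar type 2 epithelium, a highly lipogenic cell, had a marker sum of 1187 and 1242 CPM in the controls and 543 to 1210 CPM after deletion, with 10 of 10 log2 fold changes negative, and leukocyte markers summed to 431 and 598 CPM against 215 to 489 CPM, with 8 of 8 negative. Endothelial markers summed to 527 and 544 CPM in the controls and 252 to 737 CPM after deletion, airway markers to 90.4 and 101 against 68.6 to 163 CPM, and pericyte markers to 427 and 499 against 454 to 529 CPM. Mesothelial markers stood at 275 and 287 against 199 to 284 CPM, and Schwann cell markers at 14.5 and 19.1 against 10.1 to 15 CPM. Adipocyte markers summed to 1.17 to 3.03 CPM in any library, with Lep and Ucp1 at 0 in every library. The cells were sorted for GFP, and the study's staining did not find the reporter together with markers of epithelium, endothelium or blood cells. The part of such cells in the levels of Fasn, Acly, Scd1 and Scd2 was not tested.

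The genotypes overlapped for both SREBP factors. Srebf1, which encodes the factor that mainly drives fatty acid genes, was at 81.9 and 64.1 CPM in Control 1 and 2 and at 78.1, 76.0 and 73.4 CPM in Igf1r-deleted 1, 2 and 3, so that every Igf1r-deleted value lay between the controls. Srebf2, which encodes the factor that mainly drives sterol genes, was at 82.7 and 97.6 CPM in the controls and at 113, 111 and 94.2 CPM after deletion. Igf1r-deleted 3 lay between the controls, and the log2 fold change of Srebf2 was 0.24 ± 0.13 (edgeR adjusted p = 0.466). It was 0.12 without Control 1, 0.35 without Control 2 and 0.32 without Igf1r-deleted 3. The overlap came only from Control 2 lying above Igf1r-deleted 3, so leaving out either of them had to remove it. Scaling libraries by their totals removed it too. Gene-level counts do not separate the isoforms of Srebf1, nor do they report how much of either protein was cleaved.

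Scap, the escort protein, was the only member of this group whose genotypes did not overlap, and it was lower. It was at 97.4 and 85.8 CPM in the Control libraries and at 81.7, 71.1 and 67.8 CPM in the Igf1r-deleted libraries, a mean of 91.6 ± 8.25 (SD, n = 2) against 73.5 ± 7.28 (SD, n = 3). The log2 fold change was -0.32 ± 0.12 (edgeR adjusted p = 0.372), and leaving out any library gave -0.42 to -0.23. An antisense gene, 5830462I19Rik, covers 13.2% of the Scap exons, and since the use of strand in counting was not stated the reads of the pair cannot be told apart there. Insig1, a sterol-responsive retention protein and itself an SREBP target, was at 41.6 CPM in Control 1, 60.2 CPM in Control 2 and 56.9 to 64.8 CPM after deletion, and the log2 fold change, 0.27 over all libraries, was 0.02 without Control 1 and 0.55 without Control 2. Insig2, its less sterol-responsive relative, had a log2 fold change of -0.058 and overlapped between genotypes.

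All 6 mevalonate-pathway enzymes had a positive log2 fold change (against 52.3% of all genes), with a median of 0.15, and 3 of them lay above both controls (against 16.0%). Hmgcs1, the synthase that makes HMG-CoA at the head of the pathway, was at 44.2 and 53.8 CPM in Control 1 and 2 and at 60.6, 64.1 and 60.6 CPM in the Igf1r-deleted libraries, which all lay above both controls. The means were 49.0 ± 6.77 CPM (SD, n = 2) and 61.8 ± 2.02 CPM (SD, n = 3). On the log2 scale Hmgcs1 differed by 0.33 ± 0.11 (edgeR adjusted p = 0.357), and it was 0.20 without Control 1 and 0.47 without Control 2. Hmgcs1 lies on the plus strand at chr13:119690379-119708260 of GRCm38, and the antisense gene Gm48342 covers 12.1% of its exons.

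The kinases, the decarboxylase and the isomerase that follow differed less. Pmvk, phosphomevalonate kinase, was at 15.6 and 15.5 CPM in the controls and at 16.7, 15.9 and 17.2 CPM after deletion. These groups did not overlap, yet the difference was small, with a log2 fold change of 0.096 ± 0.12. Mevalonate kinase (Mvk, 0.092), the decarboxylase Mvd (0.090) and the isomerase Idi1 (0.21) overlapped between genotypes. Leaving out a library moved Mvk between 0.02 and 0.15 and Mvd between -0.03 and 0.21. Idi1 was 0.02 without Control 1, 0.04 without Igf1r-deleted 2 and 0.42 without Control 2. Idi1 shares 27.1% of its exonic 31-base words with other genes, mainly pseudogenes, and its count is uncertain for that reason. Fdps, farnesyl diphosphate synthase, stands where the pathway branches towards sterols, ubiquinone and protein prenylation. It was low, at 1.93 and 1.86 CPM in the controls and reached 3.12, 2.56 and 2.48 CPM after deletion, with no overlap. The log2 fold change of Fdps was 0.52 ± 0.27 (edgeR adjusted p = 0.464), and 27.9% of its exonic 31-base words occur in other genes, among them the overlapping Gm43738 and several pseudogenes.

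The enzymes that turn farnesyl diphosphate into squalene and squalene into cholesterol had the largest median log2 fold change of the role groups. Fdps, outside this group, had a larger log2 fold change (0.52) than all of them except Sqle, Cyp51 and Tm7sf2. Of the 11 genes in the group, 10 had a positive log2 fold change (against 52.3% of all genes), 6 lay above both controls without overlap (against 16.0%) and none below (against 14.9%), and the median was 0.34. Fdft1, squalene synthase, makes the first committed sterol intermediate. It was at 4.23 and 4.67 CPM in the controls and at 5.19, 7.12 and 6.37 CPM after deletion, all above the controls. Its log2 fold change was 0.48 ± 0.22 (edgeR adjusted p = 0.409), and 31.9% of its exonic 31-base words are shared, mostly with the overlapping gene Ctsb.

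Sqle had the largest log2 fold change of the 32 genes. It encodes squalene epoxidase, a rate-limiting step of the sterol branch, and lies on the plus strand at chr15:59315077-59331192 of GRCm38. Sqle was at 6.88 and 10.3 CPM in Control 1 and 2 and at 14, 19.7 and 14.7 CPM in Igf1r-deleted 1, 2 and 3. The genotypes did not overlap, and the means were 8.57 ± 2.39 CPM (SD, n = 2) and 16.1 ± 3.10 CPM (SD, n = 3). This was a 1.88-fold difference, or 0.91 ± 0.23 on the log2 scale, with an edgeR p of 0.00518 and an adjusted p of 0.354. The DESeq2 adjusted p was 0.0365. Without Control 1 the log2 fold change was 0.65, and without Control 2 it was 1.22. Under 1% of the exonic 31-base words of Sqle occur in another gene (0.969%).

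Cyp51, the lanosterol demethylase, came next among the genes with a p under 0.05. It was at 14 and 18.8 CPM in the controls and at 22.2, 25.2 and 25.5 CPM after deletion, with no overlap. The means were 16.4 ± 3.42 CPM (SD, n = 2) and 24.3 ± 1.85 CPM (SD, n = 3). On the log2 scale Cyp51 differed by 0.57 ± 0.16 (edgeR adjusted p = 0.354), 0.36 without Control 1 and 0.79 without Control 2. Hsd17b7, which reduces keto-sterols during demethylation, was at 10.1 and 13.5 CPM in the controls and at 14.9, 15.3 and 18.6 CPM after deletion. These groups did not overlap either, and the log2 fold change of Hsd17b7 was 0.46 ± 0.18 (edgeR adjusted p = 0.387), or 0.26 without Control 1. Cyp51 lies on the minus strand at chr5:4081145-4104746 and Hsd17b7 on the minus strand at chr1:169949535-169969241 of GRCm38.

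Lss and Msmo1 also lay above both controls in every Igf1r-deleted library. Lss, lanosterol synthase, which folds the squalene chain into the sterol rings, was at 5.93 and 6.55 CPM in the controls and at 6.97, 7.59 and 8.63 CPM after deletion. Msmo1, the methylsterol monooxygenase that works after Cyp51, was at 6.85 and 7.86 CPM in the controls and at 8.22, 9.46 and 9.49 CPM after deletion. Their log2 fold changes were 0.31 ± 0.18 and 0.30 ± 0.17, neither with an unadjusted p under 0.05.

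The other 5 enzymes of this stretch overlapped between genotypes. Tm7sf2, a sterol reductase, was the lowest of the 32 genes, at 0.950 and 1.23 CPM in the controls and at 1.05, 2.01 and 1.92 CPM after deletion. Igf1r-deleted 1 lay between the controls, and the log2 fold change of 0.61 carried an SE of 0.41. Dhcr7, a reductase of the last steps, was at 11.1 CPM in Control 1, 17.3 CPM in Control 2 and 17.0 to 19.6 CPM after deletion. The log2 fold change, 0.34 over all libraries, was 0.05 without Control 1 and 0.69 without Control 2. Nsdhl, a sterol dehydrogenase (0.042), Sc5d, a sterol desaturase (0.0084), and Ebp, a sterol isomerase (-0.13), did not differ beyond the spread of their libraries. Stard4, a cytosolic carrier of cholesterol whose gene is sterol-responsive, was at 8.27 and 11.1 CPM in the controls and at 8.33, 14.6 and 8.24 CPM after deletion. Only Igf1r-deleted 2 was above the controls, and the log2 fold change of Stard4 was 0.10 ± 0.29.

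Promoters of sterol genes are known to combine a sterol regulatory element, bound by SREBP, with boxes for NF-Y and SP1. Promoter windows from RefSeq (GRCm38.p6), of 250 bases before and 50 after a gene's start, were matched for 25 of the 32 genes. They were searched on both strands for TCACNCCAC (a form of the sterol regulatory element), the palindrome TCACGTGA (an E-box form), CCAAT (the NF-Y box) and GGGCGG (the GC box of SP1). In at least 1 window, CCAAT was found for 21 of the 25 genes (84.0%, against 41.1% of all 27025 genes with a window), and GGGCGG for 21 of 25 as well (84.0%, against 38.2%). Both boxes occurred together in a window of 18 of the 25 genes, against 14.5% of all genes. The windows of these genes were also richer in G and C, with a median of 64.7% against 53.3%. The 27025 genes were taken whether or not they were expressed in these cells, while all 32 genes were expressed. How far either point sets the counts was not tested. TCACNCCAC was found for 1 gene, Hmgcs1 (4%, against 1.44%), and TCACGTGA for none (against 1.12%). The boxes were not limited to genes above the controls: Elovl6, above both controls, had neither, while Acly and Fasn, below both, had CCAAT, and genes that overlapped between genotypes, such as Ebp, Sc5d and Mvd, had both. Other forms of the element were not searched. Fdps, Fdft1, Sqle, Stard4, Scd1, Scd2 and Fads1 had no window.

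The stretches before the start of Hmgcs1, Cyp51 and Lss, outside annotated exons, are shown as examples of cholesterol genes described above, with NF-Y and GC boxes in Hmgcs1 and Lss and a GC box alone in the printed bases of Cyp51. They are written 5′ to 3′ on the strand of the gene, with matches of either orientation in capitals (ATTGG is CCAAT and CCGCCC is GGGCGG on the other strand).
Hmgcs1, chr13:119690101-119690350, plus strand: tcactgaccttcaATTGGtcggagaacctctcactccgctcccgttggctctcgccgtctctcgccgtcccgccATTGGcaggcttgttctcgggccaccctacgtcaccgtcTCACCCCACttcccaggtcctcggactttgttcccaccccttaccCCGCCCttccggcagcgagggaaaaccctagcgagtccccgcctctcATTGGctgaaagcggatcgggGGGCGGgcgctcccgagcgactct
Cyp51, chr5:4104747-4104947, minus strand: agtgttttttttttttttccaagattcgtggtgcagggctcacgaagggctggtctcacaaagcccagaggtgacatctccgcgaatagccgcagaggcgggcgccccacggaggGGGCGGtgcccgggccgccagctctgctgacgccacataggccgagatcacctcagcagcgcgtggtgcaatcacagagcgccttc
Lss, chr10:76531355-76531587, plus strand: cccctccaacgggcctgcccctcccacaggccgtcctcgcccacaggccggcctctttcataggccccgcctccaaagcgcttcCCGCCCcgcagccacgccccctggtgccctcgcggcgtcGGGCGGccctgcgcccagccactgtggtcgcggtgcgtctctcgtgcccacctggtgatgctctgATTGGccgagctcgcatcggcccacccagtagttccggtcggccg
In Hmgcs1 the TCACNCCAC match lies between NF-Y boxes, and a match is a description of the letters and not of bound factor.

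The lipogenic enzymes had no common direction. Of these 9 genes, 5 had a positive and 4 a negative log2 fold change, with a median of 0.065. Acly, ATP-citrate lyase, which makes cytosolic acetyl-CoA for both pathways, was at 124 and 118 CPM in the controls and at 118, 113 and 103 CPM after deletion. Before rounding the highest Igf1r-deleted library lay just below Control 2, so the genotypes did not overlap, and the log2 fold change was -0.12 ± 0.10, or -0.07 without Igf1r-deleted 3. Fasn, fatty acid synthase, was at 265 and 222 CPM in the controls and at 216, 209 and 185 CPM after deletion. The libraries of deleted mice were all below the controls, and the log2 fold change was -0.26 ± 0.12 (edgeR adjusted p = 0.422), or -0.13 without Control 1. With libraries scaled by their totals alone, Acly and Fasn overlapped between genotypes. Acaca, acetyl-CoA carboxylase, which makes malonyl-CoA, had a log2 fold change of 0.076, and 33.5% of its exonic 31-base words are shared with other genes.

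Fads2 and Elovl6 were the lipogenic genes that lay above both controls. Fads2, which opens polyunsaturated fatty acid synthesis, was at 27.1 and 34.2 CPM in the controls and at 36.2, 39.0 and 42.3 CPM after deletion. All Igf1r-deleted values lay above the controls, and the log2 fold change was 0.35 ± 0.13 (edgeR adjusted p = 0.375), or 0.19 without Control 1. Fads2 lies on the minus strand at chr19:10062765-10101746 of GRCm38. Fads1, the next desaturase of that route, was at 124 and 139 CPM in the controls and at 133, 159 and 147 CPM after deletion, and the genotypes overlapped, with a log2 fold change of 0.15 ± 0.11 that was 0.07 without Control 1. Elovl6, which lengthens palmitate, was at 18.2 and 15.3 CPM in the controls and at 19.3, 18.7 and 18.8 CPM after deletion. These groups did not overlap, with a log2 fold change of 0.18 ± 0.13 that was 0.05 without Control 2 and 0.31 without Control 1.

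The stearoyl-CoA desaturases, which make monounsaturated fatty acids, varied among libraries of the same genotype. Scd1 was at 91.0 and 62.0 CPM in the controls and at 79.5, 89.8 and 51.1 CPM after deletion. Scd2 was at 700 CPM in Control 1, 500 CPM in Control 2 and 619, 525 and 501 CPM after deletion. The genotypes overlapped for both, with log2 fold changes of -0.058 ± 0.25 and -0.13 ± 0.17, and both signs turned when Control 1 was left out, to 0.24 and 0.13. Scd1 and Scd2 share 8.18% and 6.81% of their exonic 31-base words with other genes, each other included. Acss2, which makes acetyl-CoA from acetate, was higher in Igf1r-deleted 1 alone, at 17.5 CPM against 11.1 to 14.1 CPM in the other libraries.

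Levels differed far more between genes than between genotypes. Per kilobase of exon, the highest mean in the controls was that of Scd2, at 110 RPKM (128 and 91.6 in the Control libraries), and 100 RPKM after deletion. Fads1 followed at 27.4 RPKM in the controls (25.8 and 29.0) and 30.4 RPKM after deletion, and Acly was at 22.9 RPKM (23.5 and 22.3) and 21.1 RPKM. Fasn, at 22.2 RPKM in the controls (24.2 and 20.3), did not differ from Acly beyond the spread of the libraries. The lowest were Lss at 0.579 RPKM, Fdps at 0.450 RPKM and Tm7sf2 at 0.247 RPKM in the controls. The SREBP system lay between 10.8 RPKM (Insig2) and 16.5 RPKM (Insig1), above every enzyme from squalene to cholesterol, of which Sc5d was highest at 6.51 RPKM and Sqle stood at 1.55 RPKM. The gene models used for length were of GENCODE M21, and the values of Fdps, Fdft1, Idi1 and Acaca are uncertain for the sequence they share.

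**Figure D3:**
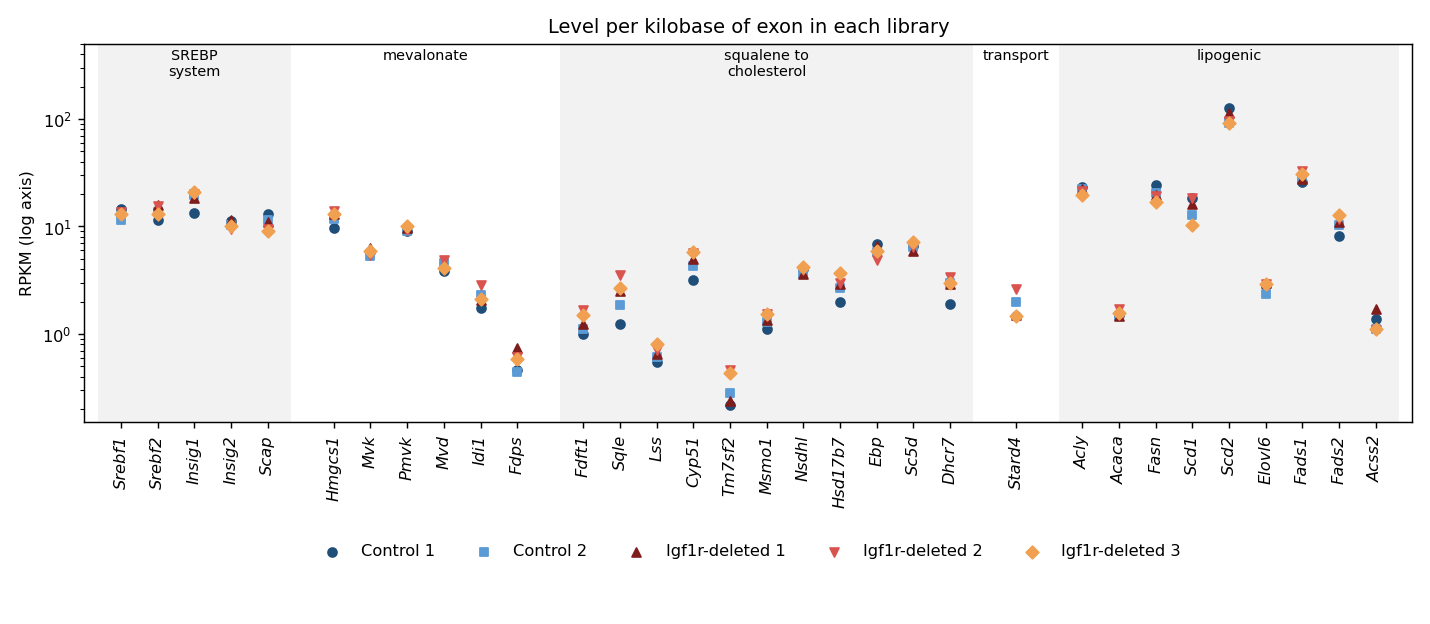
The level of each gene is plotted as RPKM on a log axis, with 1 point per library and genes ordered by role. Scd2 stands near 100 RPKM and Tm7sf2 below 1 RPKM, while the points of a gene mostly lie close together.

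The spread between the controls set how firmly these differences stand. Averaged over the 11 squalene-to-cholesterol genes, log2 CPM was 3.04 in Control 1, 3.26 in Control 2 and 3.35, 3.57 and 3.58 in Igf1r-deleted 1, 2 and 3. The gap between the controls was thus larger than the gap between Control 2 and Igf1r-deleted 1. Control 1 was the lower control for 8 of these 11 genes, though for only 16 of all 32 and for 49.7% of all genes tested. The mevalonate genes were at 3.31 and 3.43 in the controls and 3.61, 3.63 and 3.53 after deletion, with no overlap. The lipogenic genes, at 6.15 and 5.99 in the controls and 6.17, 6.14 and 5.99 after deletion, overlapped. Control 1 was the control farther from the Igf1r-deleted mean for 23 of the 32 genes. The same count over all genes was not made, so this cannot be read as a trait of these genes.

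Leaving out a library changed the size of the differences. The median of the squalene-to-cholesterol group was 0.23 without Control 1 and 0.55 without Control 2, and that of all 32 genes 0.12 and 0.22. The number of genes higher at an unadjusted edgeR p under 0.05 dropped from 5 to 1 without Control 1 and to 2 without Igf1r-deleted 2. Without Control 1 the number over all tested genes dropped as well, from 865 to 167 higher and from 1032 to 245 lower. Without Igf1r-deleted 2 the number over all tested genes dropped from 865 to 393 higher and from 1032 to 621 lower. The median of the lipogenic group turned negative without Control 2 (-0.099) and without Igf1r-deleted 1 (-0.12), and that of the SREBP system without Control 2 (-0.12).

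**Figure D4:**
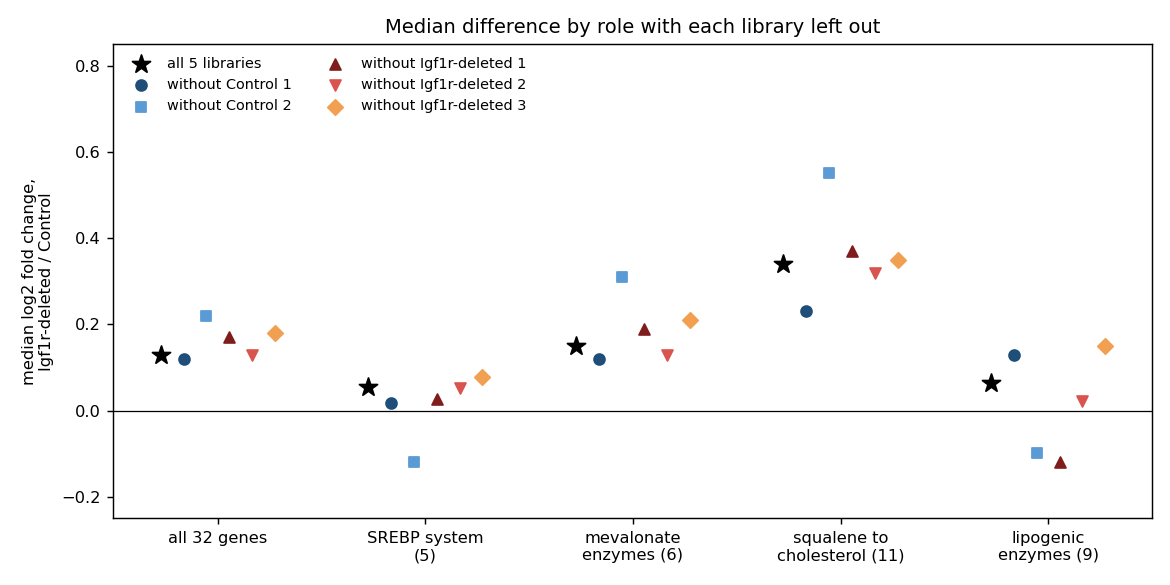
The vertical axis gives the median log2 fold change, Igf1r-deleted over Control, of all 32 genes and of 4 role groups, with all 5 libraries (star) and with any library left out. The squalene-to-cholesterol median ranges from 0.23 to 0.55 and the mevalonate median from 0.12 to 0.31, while the lipogenic and SREBP medians fall on both sides of 0.

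Enzymes that feed or leave the same pathway were examined beside the 32 genes. Of 11 other isoprenoid and sterol enzymes, 10 had a positive log2 fold change (against 52.3% of all genes), with a median of 0.13, and 4 lay above both controls without overlap (Acat2, Pdss1, Erg28 and Aacs, against 16.0% of all genes). Aacs, which activates acetoacetate for lipid synthesis in the cytosol, was at 10.2 and 13.3 CPM in the controls and at 17.6, 16.5 and 15.6 CPM after deletion. Its log2 fold change was 0.50 ± 0.16 (edgeR adjusted p = 0.354), or 0.31 without Control 1. It was the only gene of this list with an unadjusted p under 0.05.

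Genes that process SREBP or limit it had no common direction. Of these 15 genes, 7 had a positive and 8 a negative log2 fold change, with a median of -0.0039. Without overlap, 3 were higher (against 16.0% of all genes) and 3 lower (against 14.9%). The proteases that cleave SREBP, Mbtps1 (427 and 424 CPM in the controls against 417, 362 and 374 CPM) and Mbtps2 (31.3 and 30.7 against 30.2, 30.6 and 29.2 CPM), were lower without overlap, by log2 fold changes of -0.15 ± 0.11 and -0.048 ± 0.093. Lpin1, a phosphatidate phosphatase that also holds down nuclear SREBP activity and a known glucocorticoid-responsive gene, was at 75.5 and 39.0 CPM in Control 1 and 2 and at 29.3, 29.9 and 32.8 CPM after deletion. It lay below both controls, with a log2 fold change of -0.90 ± 0.24 (edgeR adjusted p = 0.354; DESeq2 adjusted p = 0.0413), but with -0.35 without Control 1. Fbxw7, part of the ligase that degrades nuclear SREBP, was at 15.1 and 17.2 CPM in the controls and at 18.1, 21.6 and 26 CPM after deletion, a log2 fold change of 0.44 ± 0.17 (edgeR adjusted p = 0.384). Sec24d, a coat protein of the vesicles that leave the endoplasmic reticulum, and Erlin1, an endoplasmic reticulum protein that binds cholesterol, had log2 fold changes of 0.41 and 0.31, which were 0.16 and 0.14 without Control 1 and 0.69 and 0.49 without Control 2.

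Of 14 genes of LXR response, efflux, storage and trafficking, 9 had a negative log2 fold change, with a median of -0.068. Of these 14, 4 lay below both controls (Abca1, Npc1, Npc2 and Stard3, against 14.9% of all genes) and none above (against 16.0%). The median was 0.0059 with libraries scaled by their totals, and the number of genes with an unadjusted edgeR p under 0.05 dropped from 3 to 0 without Control 1 or without Igf1r-deleted 2. Abca1, the cholesterol exporter and an LXR target, was at 305 and 188 CPM in Control 1 and 2 and at 160, 160 and 183 CPM after deletion. Its log2 fold change was -0.56 ± 0.19 (edgeR adjusted p = 0.361), or -0.17 without Control 1 and -0.87 without Control 2. Npc2, which moves cholesterol out of lysosomes, was at 369 and 346 CPM in the controls and at 308, 273 and 263 CPM after deletion, and its log2 fold change of -0.35 ± 0.11 (edgeR adjusted p = 0.354) was -0.31 without Control 1. Mylip, an LXR target that degrades lipoprotein receptors, was at 72.3 CPM in Control 1 and 29.3 to 39.0 CPM in the other libraries, and the log2 fold change, -0.64 over all libraries, was -0.10 without Control 1 and -1.05 without Control 2. The LXR genes Nr1h3 and Nr1h2 overlapped between genotypes (0.023 and -0.067).

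Other genes of fatty acid and glycerolipid synthesis were divided, as the lipogenic enzymes were. Of 28 genes tested of 29, 16 had a positive and 12 a negative log2 fold change, with a median of 0.016. Without overlap, 5 were higher (against 16.0% of all genes) and 4 lower (against 14.9%). Me1, malic enzyme, which supplies NADPH for lipid synthesis, was at 11.8 and 20.4 CPM in the controls and at 23.7, 29.4 and 27.0 CPM after deletion, all above the controls. Its log2 fold change was 0.73 ± 0.23 (edgeR adjusted p = 0.354), or 0.38 without Control 1 and 1.16 without Control 2. Hacd2, an enzyme of fatty acid elongation, was at 9.33 and 10.4 CPM in the controls and at 14.6, 11.4 and 13.8 CPM after deletion, with a log2 fold change of 0.43 ± 0.16. Dgat2 and Gpam, which build triglyceride, were lower without overlap: Dgat2 was at 39.5 and 30.1 CPM in the controls and at 29.6, 23.4 and 25.5 CPM after deletion, and Gpam at 126 and 100 CPM against 96.8, 85.5 and 89.8 CPM. Their log2 fold changes of -0.41 and -0.32 were -0.21 and -0.15 without Control 1.

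**Figure D5:**
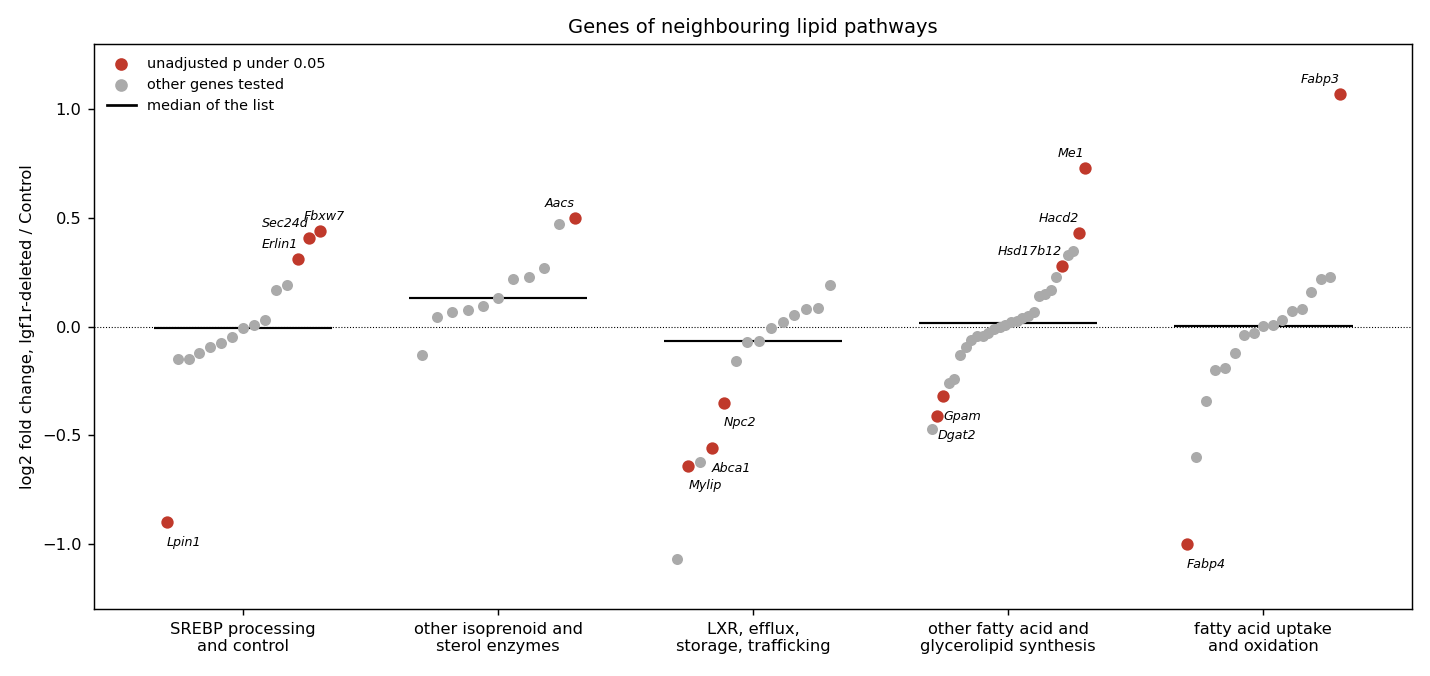
Each point is a gene of 1 of 5 lists of neighbouring lipid pathways, placed by its log2 fold change, with black lines at the list medians and genes with an unadjusted edgeR p under 0.05 named and in red. The median of the other isoprenoid and sterol enzymes lies at 0.13 and that of the LXR, efflux, storage and trafficking genes at -0.068.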

How the data were processed

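The authors prepared NEBNext Ultra libraries from GFP-sorted cells and deposited raw counts per gene, made with GenomicAlignments from reads that Trim Galore had trimmed and Bowtie2 had placed on mm10. Versions, annotation and use of strand are not given in the sources used here, and gene-level counting makes overlapping and near-identical genes uncertain. Groups came from the sample labels. The test was that of edgeR 4.0.16 in R 4.3.3, with limma 3.58.1: TMM factors, filterByExpr, genotype as the only term, two-sided quasi-likelihood F tests and Benjamini-Hochberg adjustment over 15298 genes. The test was tried on simulated counts. CPM used TMM library sizes, log2 CPM a prior count of 2, and RPKM the GENCODE M21 exon length. DESeq2 1.42.0 left 3563 genes, Fdps and Tm7sf2 among them, without an adjusted p-value. With 2 libraries against 3, a permutation test cannot go below 0.1. Libraries of a genotype differed by more than counting error (chi-square 23.2 to 50.7 for each degree of freedom), so all counted as separate samples. The 32 genes and all lists were chosen with earlier results of these data known. Genes described per library had an unadjusted p under 0.05, genotypes that did not overlap, a role as SREBP factor, or the 3 highest or lowest RPKM, and those of the other lists an unadjusted p under 0.05, at most 4 by smallest p. Insig1, Dhcr7, Stard4, Scd1, Acss2, Nr1h2, Nr1h3, Mbtps1, Mbtps2, Cd36 and Cpt1a were added after their values were seen.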

Additional observations from a re-analysis of the deposited data

How the results depend on the processing

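Each result was recomputed under 9 other processing choices and with each of the 5 libraries left out. The 11 genes higher without overlap kept that state under all 9 choices, and the 3 lower genes did except Acly (upper-quartile factors, the filter of at least 1 count, library totals) and Fasn (library totals). The robust edgeR fit, the replicate block and limma voom used the CPM of the main fit, so overlap could not change there. The DESeq2 Wald test used the scaling of the DESeq2 size factors and repeats that choice. Scaling by totals raised every Igf1r-deleted library relative to both controls (TMM factors 0.981 to 1.06 against 0.961 and 0.979). Genes higher without overlap could not lose that state there. Library totals moved the median of all genes from 0.015 to 0.088 and the share of higher genes among those with an unadjusted p under 0.05 from 45.6% to 64.4% (1343 higher and 744 lower). Under library totals 7 of the 32 genes were higher and 0 lower at that p. Without overlap 13 were higher and 1 lower, with no share over all genes counted beside them. The medians were 0.21 (all 32), 0.13 (SREBP system), 0.23 (mevalonate), 0.41 (squalene to cholesterol) and 0.13 (lipogenic). Those of the other lists were 0.0059 (LXR, efflux, storage and trafficking, where the sign turned), 0.068 (SREBP processing), 0.20 (other isoprenoid and sterol enzymes), 0.090 (other fatty acid and glycerolipid synthesis) and 0.080 (uptake and oxidation). Insig2 was at 0.013 and Scd1 at 0.020. The labels do not pair the samples across genotypes, and same-numbered libraries shared deviations weakly (correlations 0.208 and 0.121). A replicate block gave 136 genes (0.889%) at an adjusted edgeR p under 0.05, 1 of the 32 among them (Sqle), medians of 0.18 (all 32) and 0.076 (other fatty acid and glycerolipid synthesis), -1.04 for Igf1r, -0.0062 for Nsdhl, -0.071 for Sc5d and 0.17 for Scd1. The DESeq2 Wald test called 200 genes and 1 of the 32 (Sqle), with -0.94 for Igf1r; with its size factors or test Sc5d was -0.0022. The cause of these changes was not tested. Leaving out each library, the 32 genes had 0 at an adjusted edgeR p under 0.05, 1 to 7 higher and 0 to 2 lower at an unadjusted p under 0.05, and 12 to 18 higher and 3 to 7 lower without overlap. Over all genes there were 0 to 43 at an adjusted p under 0.05, and 167 to 1427 higher and 245 to 1768 lower unadjusted. The medians ran from 0.12 to 0.22 (all 32), -0.12 to 0.078 (SREBP system), 0.12 to 0.31 (mevalonate), 0.23 to 0.55 (squalene to cholesterol), -0.12 to 0.15 (lipogenic), 0.11 to 0.20 (other isoprenoid and sterol enzymes) and -0.043 to 0.074 (other fatty acid and glycerolipid synthesis). The sign turned for Srebf1 (-0.12 to 0.24), Insig2 (-0.14 to 0.00028), Mvd (-0.033 to 0.21), Nsdhl (-0.034 to 0.11), Sc5d (-0.070 to 0.070), Stard4 (-0.23 to 0.32), Scd1 (-0.32 to 0.24), Scd2 (-0.36 to 0.13) and Acss2 (-0.19 to 0.23). A fit with 1 Control library takes its spread from the Igf1r-deleted libraries. Apart from rescaling, leaving out a library can only keep or raise the number of genes without overlap. The numbers without overlap therefore do not test that state. Over all genes they were counted only in the main fit, so no background stands beside them here.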

Other observations

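Genes of fatty acid uptake and oxidation had no common direction. Of 17 genes, 9 had a positive and 8 a negative log2 fold change, with a median of 0.0026, and 12 overlapped between genotypes. Without overlap, 2 were higher (against 16.0% of all genes) and 3 lower (against 14.9%). Cd36, a fatty acid receptor, was at 64.8 and 72.0 CPM in the controls and at 48.2, 58.4 and 29.1 CPM after deletion, all below the controls, with a log2 fold change of -0.60 ± 0.26 (edgeR adjusted p = 0.401). Without Igf1r-deleted 3, the library with the lowest sum of endothelial markers (252 CPM), Cd36 was at -0.36, and the part of endothelial cells was not tested. Cpt1a, the gate of mitochondrial fatty acid oxidation, overlapped, at 270 and 281 CPM against 280, 266 and 260 CPM.

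The lipid-binding genes Fabp4 and Fabp3 were near the detection filter and differed in opposite directions. Fabp4, a fatty acid carrier that is also among the lipofibroblast markers, was at 1.58 and 1.72 CPM in the controls and at 0.935, 0.956 and 0.584 CPM after deletion, a log2 fold change of -1.0 ± 0.38 (edgeR adjusted p = 0.377). Fabp3, the carrier typical of muscle, was at 0.749 and 1.53 CPM in the controls and at 1.53, 2.77 and 2.89 CPM after deletion, a log2 fold change of 1.07 ± 0.45 (edgeR adjusted p = 0.400), or 0.65 without Control 1 and 1.66 without Control 2.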
